A study of Mus musculus with 6 samples.

Results

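A group of 10 genes of the integrated stress response that are known for their link to the transcription factor ATF4 were followed in the liver of insulin-resistant mice with and without an insulin injection. The genes were taken from the count table by symbol, and they were Atf4, Atf3, Atf5, Ddit3, Trib3, Asns, Chac1, Psat1, Phgdh and Sesn2. These are 10 of the 54532 genes listed. All were in the table, and 9 passed the filter on low counts. Phgdh did not pass and was not tested.

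Livers were taken from 6 male C57BL/6J mice, and 1 RNA sequencing library was made from each. All 6 mice were fed a high-fat diet (HFD) for 6 weeks from 8 weeks of age to make them insulin resistant (IR), and all were fasted for 16 h. The IR insulin group (3 mice) then received insulin at 0.75 units per kg by intraperitoneal injection, and the IR vehicle group (3 mice) received bovine serum albumin (BSA), the carrier of the insulin. Livers were collected 6 h later, so the comparison asks which transcripts differ 6 h after insulin in animals on HFD. No mice on normal chow entered these 6 libraries. The liver was sequenced as a whole tissue, in which fewer cells of a type and less RNA per cell cannot be told apart.

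The integrated stress response starts at 4 kinases that each sense a different strain, such as a shortage of amino acids or unfolded protein in the endoplasmic reticulum, and that phosphorylate the translation factor eIF2. Protein synthesis then slows, while the mRNA of Atf4 is translated more. ATF4 enters the nucleus, pairs with C/EBP proteins and binds composite C/EBP-ATF elements in genes for amino acid supply and stress control. In liver the pathway is known to respond to diets short of an amino acid, and ATF4 is also known as an effector of growth signalling through mTORC1. ATF4 itself is set mainly by translation, which counts of mRNA do not measure.

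No difference between insulin and vehicle livers was detected in any of the 9 genes tested, at the depth and spread of these libraries. Values are given in CPM, the counts scaled to a common effective library size by the TMM method, and fold changes are log2 values of IR insulin over IR vehicle with their standard error (SE). No member reached an unadjusted p under 0.05 in the edgeR quasi-likelihood test, where 2.86% of the 13377 genes tested did (383 genes). After Benjamini-Hochberg adjustment over all genes tested, no gene of the table was under 0.05 (0%, 0 of 13377), and the adjusted p of the 9 members ran from 0.852 to 0.977. DESeq2 gave 507 genes at an unadjusted p under 0.05, and limma voom with sample quality weights gave 213. Neither gave a gene at an adjusted p under 0.05. No member met the study's criteria either, which ask for a log2 change of 0.35 or more in size beside p under 0.05 before adjustment. These were met by 1% of genes in the higher direction and by 1.86% in the lower direction.

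The fold changes of the 9 genes leaned upwards. Of them 7 were above 0 and 2 below, with a median log2 fold change of 0.60, while 48.6% of all genes tested were above 0 and their median was −0.02. The size of this lean varied with the mice kept and with the treatment of GC content. Without IR vehicle replicate 2 the median of the members was 0.15 and 5 of 9 were above 0, and without IR insulin replicate 3 it was 0.23. Without IR vehicle replicate 3 it was 0.68 and all 9 were above 0. With all 6 mice and GC content modelled it was 0.23, and 5 of 9 were above 0. For 1 of the 9, Atf4, the 3 insulin values all lay above the 3 vehicle values, and 6.25% of all genes tested had this order. The opposite order was found for no member and for 6.04% of all genes.

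**Figure D1:**
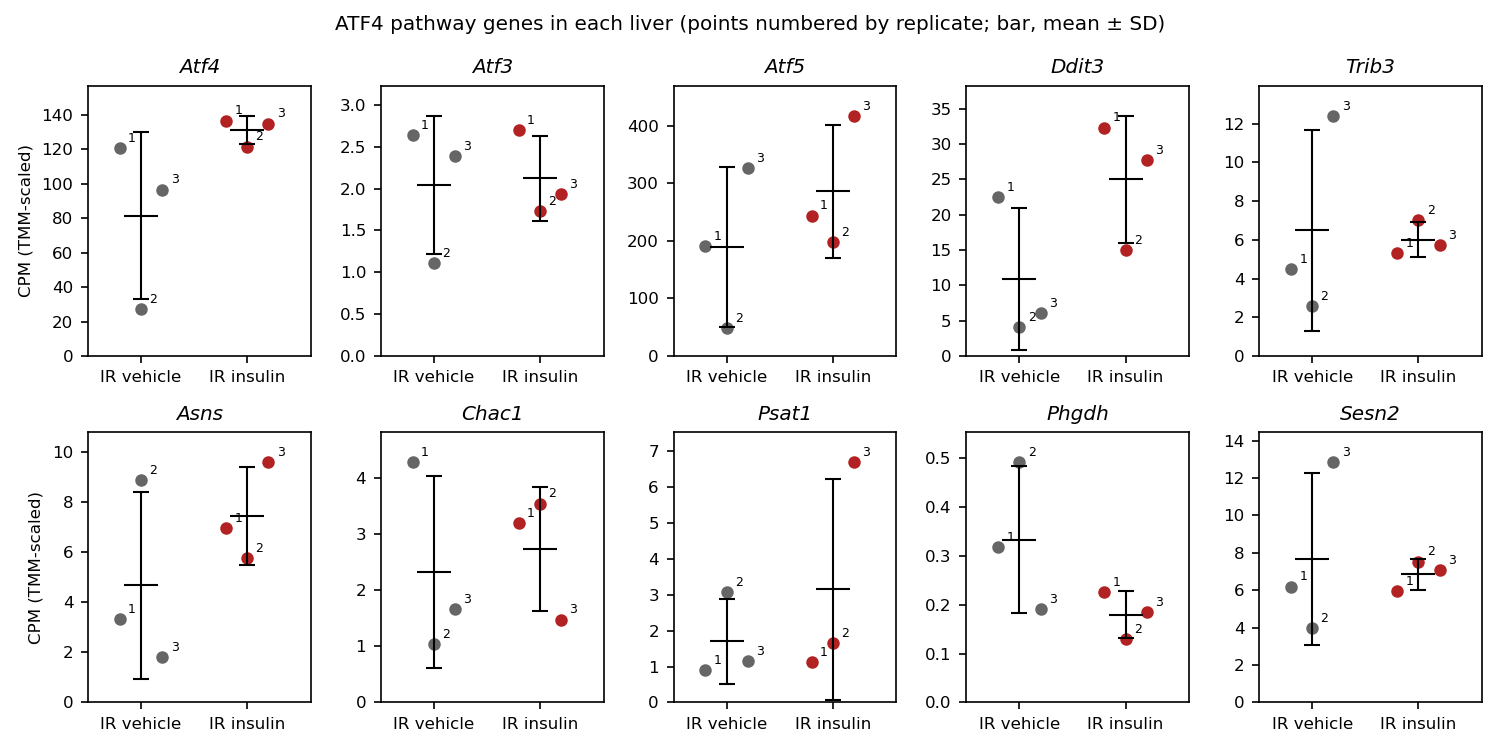
Level of each of the 10 genes in each library (CPM, linear axes that differ between genes), with numbered points for the 3 IR vehicle (grey) and the 3 IR insulin (red) mice and bars for mean ± SD. The groups overlap for every gene except Atf4, and IR vehicle replicate 2 holds the lowest value of 7 of the 9 genes tested.

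Library totals ran from 18449986 to 21827619 counts. IR vehicle replicate 2 stood apart from the other 5 libraries. Its deviation from them (log2 CPM minus the median of the others) fell with the GC content of the gene, with a Spearman rho of −0.67 over 13367 genes, against −0.15 to 0.31 in the other libraries. The GC content of the members' longest transcripts ran from 45.6% (Ddit3) to 61.7% (Atf5), so fold changes are also given without that library or with GC content modelled where these moved them most. Summed levels of cell type markers differed between mice as well. The summed level of 4 erythroid markers was 604, 1234 and 406 CPM in IR vehicle replicates 1, 2 and 3. It was 332, 460 and 299 CPM in IR insulin replicates 1, 2 and 3. Of the 4 markers, 3 were at an unadjusted p under 0.05, beside 2.86% of all genes tested. The summed level of 5 neutrophil markers was 3.43 CPM in IR vehicle replicate 3, below the 27.3 to 72.9 CPM of the rest, and that of 5 periportal hepatocyte markers was 6156 CPM in the same mouse and 1364 to 2095 CPM in the others. The 4 B cell markers summed to 10.9 CPM in IR vehicle replicate 2 and to at most 3.51 CPM elsewhere, and 1 of the 2 tested was at an unadjusted p under 0.05. The 6 hepatocyte markers were high in every library, at 152832 CPM in IR vehicle replicate 2, 100338 CPM in IR vehicle replicate 3 and 53399 to 68412 CPM in the remaining libraries. The 6 macrophage markers summed to 364 CPM in IR insulin replicate 1 and to 194 to 235 CPM in the others. The 5 pericentral hepatocyte markers summed to 18634 CPM in IR vehicle replicate 2 and to 10281 to 12756 CPM in the others. The 4 adipocyte markers summed to 9.73 CPM in IR vehicle replicate 1 and to at most 3.74 CPM elsewhere. The 6 pancreatic acinar markers were at 0 counts in all 6 libraries. What part these differences have in the values of the ATF4 genes was not tested.

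Of the 10 genes, 4 carry the letters of a C/EBP-ATF element near a RefSeq start of transcription, and their sequences are shown because this element is the known docking site of ATF4. The windows searched were the RefSeq promoters of build GRCm38.p6, from 250 bases before to 50 bases after each start. All 10 members were matched by symbol, with 12 windows, and the search was for TGATGNAA on either strand, which reads TTNCATCA from the other strand. Each run below is 30 bases on the strand of its gene, with the match in capitals.
Atf3, chr1:191183425-191183454, minus strand: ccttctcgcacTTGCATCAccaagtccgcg
Trib3, chr2:152344028-152344057, minus strand: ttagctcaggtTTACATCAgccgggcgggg
Asns, chr6:7693214-7693243, minus strand: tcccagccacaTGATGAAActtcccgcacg
Chac1, chr2:119351038-119351067, plus strand: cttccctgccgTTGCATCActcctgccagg
The matches lie 110 to 103 bases before the RefSeq start in Atf3, 23 to 16 before it in Asns, 193 to 186 before it in Chac1, and 15 to 22 bases after it in Trib3. The loci printed with each gene below are from GENCODE and start elsewhere. Against those loci, the Atf3 and Asns matches lie inside the gene and the Trib3 match lies just before it. Only the Asns match reads TGATGNAA on the strand of the gene, and the other matches read it on the opposite strand. Of all RefSeq windows, 3.97% held a match (1304 of 32851), and 4.51% of genes had at least 1. Atf4, Atf5, Ddit3, Psat1, Phgdh and Sesn2 had no match in these windows, which says only that these letters are not there. A match is a string of letters, and no binding was measured.

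Atf4 (ENSMUSG00000042406, chromosome 15, 80255184 to 80257541, plus strand), the factor at the centre of the group, was abundant in every library. It stood at 121, 27.0 and 96.6 CPM in IR vehicle replicates 1, 2 and 3, and at 137, 122 and 135 CPM in IR insulin replicates 1, 2 and 3. The 3 insulin mice lay close together, and the highest vehicle value fell just short of the lowest insulin value, while IR vehicle replicate 2 was far below the rest. The group means were 81.4 ± 48.6 CPM with vehicle and 131 ± 8.28 CPM with insulin (SD, n = 3 each). The log2 fold change was 0.69 ± 0.48 (SE), with a 95% interval of −0.42 to 1.79 and adjusted p = 0.852 by edgeR. Without IR vehicle replicate 2 the fold change was 0.28, and it stayed above 0 in all 15 alternative settings.

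Atf5 (ENSMUSG00000038539, chromosome 7, 44812256 to 44816658, minus strand) is a close relative of ATF4 that is also regulated through translation and is linked to mitochondrial protein stress. It was the most abundant of the 10 per length of transcript. The vehicle mice held 190, 48.9 and 326 CPM in replicate order, and the insulin mice 243, 197 and 417 CPM. The groups overlapped, with replicate 3 the highest mouse of each group and IR vehicle replicate 2 again the lowest of all. By edgeR the fold change was 0.60 ± 0.61 (log2, 95% interval −0.81 to 2.01, adjusted p = 0.853). It moved between 0.15 without IR vehicle replicate 2 and 1.26 without IR vehicle replicate 3, and it was 0.23 with GC content modelled. The gene overlaps Nup62 and Il4i1 on the opposite strand, and whether counting used strand is not given in the sources used here, so part of its count may belong to them.

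Atf3 (ENSMUSG00000026628, chromosome 1, 191170296 to 191218039, minus strand) encodes an immediate stress factor that ATF4 is known to induce. It was low, with 18 to 60 counts per library. The vehicle mice stood at 2.64, 1.105 and 2.38 CPM and the insulin mice at 2.70, 1.73 and 1.94 CPM. The groups covered the same range, and the lowest value was again that of IR vehicle replicate 2. Its log2 fold change was 0.05 ± 0.43 (95% interval −0.95 to 1.05, adjusted p = 0.977 by edgeR), and the sign turned in 5 of the 15 alternatives, among them the fit without IR vehicle replicate 2 (−0.24). Differences inside the 95% interval were not excluded at this depth and spread. The small RNA gene Gm24748 lies in it on the opposite strand.

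Ddit3 (ENSMUSG00000025408, chromosome 10, 127290774 to 127296288, plus strand) encodes CHOP, a factor that drives cell death and feedback genes when stress lasts, and it had the largest fold change of the 9 genes. The vehicle mice stood at 22.5, 4.11 and 6.10 CPM and the insulin mice at 32.3, 15.02 and 27.7 CPM. IR vehicle replicates 2 and 3 were lower than every insulin mouse, but IR vehicle replicate 1 lay inside the insulin range. The means were 10.9 ± 10.1 and 25.0 ± 8.96 CPM (SD, n = 3 each). The log2 fold change was 1.20 ± 0.62, with a 95% interval of −0.24 to 2.63 and adjusted p = 0.852 by edgeR.

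Whether the unadjusted p of Ddit3 was under 0.05 depended on the setting, and its adjusted p was under 0.05 in no setting. Without IR vehicle replicate 1 the log2 fold change was 2.29, at an unadjusted p under 0.05, as were 1323 of the 13377 genes tested in that fit. Without IR vehicle replicate 2 it was 0.81, and with GC content modelled it was 1.26. Over the 15 alternatives the fold change was always above 0, the unadjusted p was under 0.05 in 4, of which 3 kept all 6 libraries (among them the fit with every gene with a count kept, 1.22), and the adjusted p ran from 0.481 to 0.9997. Ddit3 overlaps Mars and Gm4189 on the opposite strand. The table listed Ddit3 a second time under ENSMUSG00000116429, a model of 105 bases inside the gene, with 0 counts in all 6 libraries.

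Trib3 (ENSMUSG00000032715, chromosome 2, 152337422 to 152344032, minus strand) encodes a pseudokinase that ATF4 and CHOP are known to induce, that restrains ATF4 in turn, and that has been linked to inhibition of AKT in liver. In the vehicle mice it reached 4.49, 2.58 and 12.4 CPM, and in the insulin mice 5.31, 7.01 and 5.72 CPM. The insulin mice formed a narrow band, and the vehicle mice lay on both sides of it, with IR vehicle replicate 3 the highest of all 6. This gave a log2 fold change of −0.11 ± 0.53 (95% interval −1.35 to 1.12, adjusted p = 0.957 by edgeR). Without IR vehicle replicate 3 it was 0.76, without IR vehicle replicate 2 it was −0.49, and with GC content modelled it was −0.41.

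Sesn2 (ENSMUSG00000028893, chromosome 4, 132492032 to 132510501, minus strand) encodes Sestrin 2, a leucine sensor that restrains mTORC1. It followed the pattern of Trib3 from mouse to mouse, with 6.19, 3.99 and 12.8 CPM in the vehicle group and 5.94, 7.53 and 7.06 CPM in the insulin group. IR vehicle replicate 3 was again the highest and IR vehicle replicate 2 the lowest, with the insulin mice between them. Its log2 fold change was −0.17 ± 0.42 (95% interval −1.15 to 0.81, adjusted p = 0.926 by edgeR), and it turned to 0.43 without IR vehicle replicate 3. With GC content modelled it was −0.55. The gene overlaps the non-coding Gm12981 on its own strand.

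Chac1 (ENSMUSG00000027313, chromosome 2, 119351229 to 119354381, plus strand) encodes an enzyme that degrades glutathione, and it lies downstream of ATF4 and CHOP. It stood at 4.28, 1.04 and 1.67 CPM in the vehicle mice and at 3.20, 3.55 and 1.48 CPM in the insulin mice. The highest and the lowest value both came from the vehicle group, so the insulin range lay within the vehicle range. By edgeR the log2 fold change was 0.23 ± 0.58 (95% interval −1.11 to 1.57, adjusted p = 0.925). It was −0.11 without IR vehicle replicate 2.

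The 3 members that build amino acids were low in these livers. Asns (ENSMUSG00000029752, chromosome 6, 7675169 to 7693254, minus strand), the asparagine synthetase, had 38 to 208 counts per library. The vehicle libraries gave 3.33, 8.90 and 1.81 CPM, and the insulin libraries 6.98, 5.76 and 9.59 CPM. IR vehicle replicates 1 and 3 were below every insulin mouse, whereas IR vehicle replicate 2, the lowest mouse for 7 other members, was second only to IR insulin replicate 3. The means were 4.68 ± 3.73 and 7.44 ± 1.96 CPM (SD, n = 3 each), with a log2 fold change of 0.68 ± 0.55. The 95% interval was −0.60 to 1.95, and edgeR gave an adjusted p = 0.852.

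Leaving out IR vehicle replicate 2 moved Asns the other way from Atf4. Its log2 fold change was then 1.54, and it was 1.15 in limma voom with sample quality weights, which gave that library the lowest weight. These were the 2 alternatives in which the unadjusted p of Asns was under 0.05, where 490 and 213 of 13377 genes were as well. The adjusted p of Asns ran from 0.750 to 0.9997 over the 15 alternatives, so it was under 0.05 in none of them. GC content modelled over all genes left the Asns fold change at 0.75.

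Psat1 (ENSMUSG00000024640, chromosome 19, 15904678 to 15947337, minus strand) encodes the aminotransferase of serine synthesis. It had 17, 50 and 24 counts in the vehicle libraries and 25, 38 and 145 in the insulin libraries, which are 0.90, 3.07 and 1.14 CPM and 1.13, 1.65 and 6.69 CPM. A single mouse, IR insulin replicate 3, set the higher insulin mean, and the other two insulin mice lay inside the vehicle range. The log2 fold change was 0.90 ± 0.76 (95% interval −0.87 to 2.66, adjusted p = 0.852 by edgeR). It was −0.27 without IR insulin replicate 3 and 1.61 without IR vehicle replicate 2. The pseudogene Gm3329 lies within the gene on the opposite strand.

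Phgdh (ENSMUSG00000053398, chromosome 3, 98313170 to 98339990, minus strand), which catalyses the step that commits carbon to serine, was close to the floor of detection. It had 6, 8 and 4 counts in the vehicle libraries and 5, 3 and 4 in the insulin libraries, and the groups overlapped. Summed over the 3 libraries these are 18 counts with vehicle, or 0.320 CPM with an exact Poisson 95% interval of 0.190 to 0.506. With insulin they are 12 counts, or 0.179 CPM with an interval of 0.0926 to 0.313. The intervals cover counting error only. In the fit that kept every gene with a count its log2 fold change was −0.82 ± 0.89, with an adjusted p of 0.803 by edgeR.

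**Figure D2:**
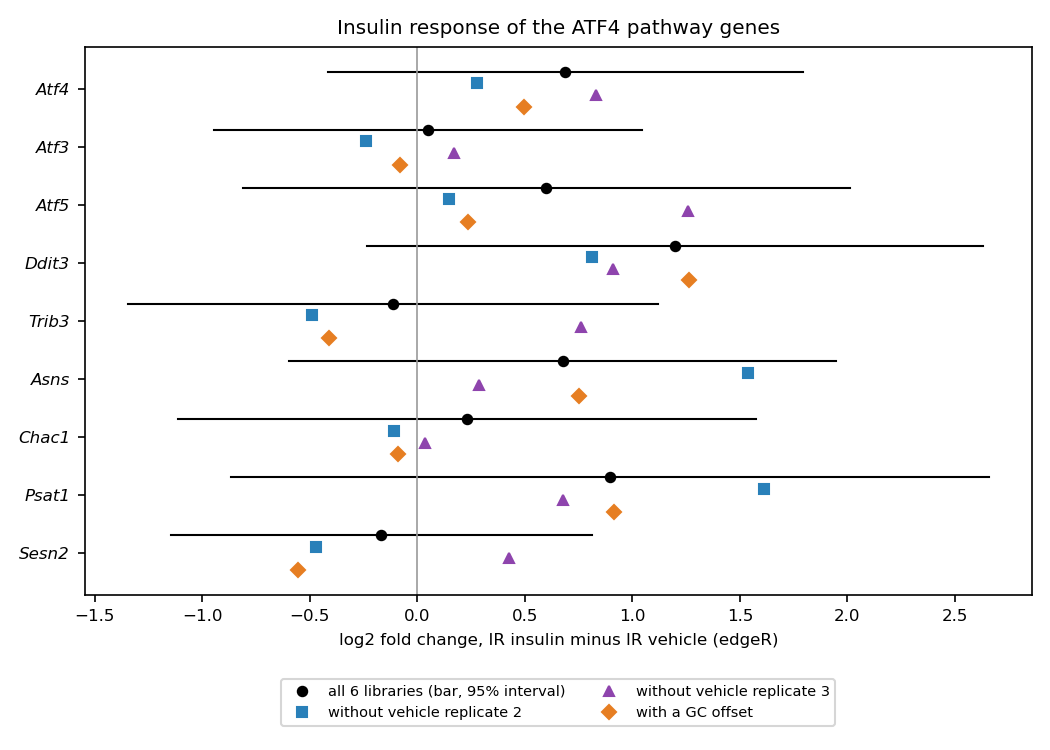
Log2 fold change (IR insulin over IR vehicle, edgeR) of the 9 genes tested, with the 95% interval from all 6 libraries as a bar and the values without IR vehicle replicate 2, without IR vehicle replicate 3 and with a GC offset as separate symbols. Every interval covers 0, and the symbols of Atf3, Trib3, Chac1 and Sesn2 fall on both sides of it.

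Set on a common scale per length, the 10 genes spanned a wide range. Mean levels over the 6 libraries, in CPM per kb of the longest transcript with the SD over libraries, were 131 ± 69.4 for Atf5, 52.6 ± 20.5 for Atf4 and 18.5 ± 11.9 for Ddit3. This order held in all 6 libraries. The other members lay lower in every library, except that Asns was above Ddit3 in IR vehicle replicate 2. Trib3 (3.09 ± 1.65), Asns (3.01 ± 1.52), Sesn2 (2.09 ± 0.861), Chac1 (1.55 ± 0.802), Atf3 (1.05 ± 0.310) and Psat1 (0.928 ± 0.852 CPM per kb) followed. Neighbours in this lower part changed places between libraries, each being above the next in 3 or 4 of 6, so their order was within the spread. Phgdh was last in every library at 0.135 ± 0.0690 CPM per kb.

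The spread between mice was wider with vehicle than with insulin for 8 of the 9 genes, the exception being Psat1, and the same was true of 85.0% of all genes tested. The median SD of log2 CPM of the 9 genes was 1.12 among the vehicle mice and 0.37 among the insulin mice, against 0.52 and 0.18 over all genes. The ratio of the highest to the lowest vehicle mouse ran from 2.39 for Atf3 to 6.68 for Atf5. Among the insulin mice the same ratio was 1.12 for Atf4, 1.27 for Sesn2, 1.32 for Trib3 and 5.94 for Psat1.

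The 2 outlying vehicle mice carried different profiles of these genes. IR vehicle replicate 2 held the lowest value of 7 of the 9 genes and the highest of none, where it held the lowest value of 37.4% and the highest of 35.8% of all genes. Its deviations were −2.41 for Ddit3, −2.31 for Atf5 and −2.17 for Atf4 on the log2 scale, whereas Asns (0.63) and Psat1 (1.36) lay above the median of the other libraries, second to IR insulin replicate 3 in both. Over all genes the median absolute deviation was 0.69 in this library and 0.15 to 0.35 in the others. Ddit3, Atf5, Atf4, Asns and Psat1 were at percentiles 3.71, 4.27, 5.28, 75.3 and 95.7 of its deviations. Their GC contents were 45.6%, 61.7%, 55.5%, 47.7% and 48.4%, and deviations in this library fell with GC content (rho −0.67). The part of GC content in these values was not tested. IR vehicle replicate 3 was high in Trib3 (1.21), Sesn2 (1.04) and Atf5 (0.73) and low in Asns (−1.89) and Ddit3 (−1.86). Among the insulin mice the widest deviation was that of Psat1 in replicate 3 (2.45), where Atf5 was also high (1.08) and Chac1 low (−1.07).

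**Figure D3:**
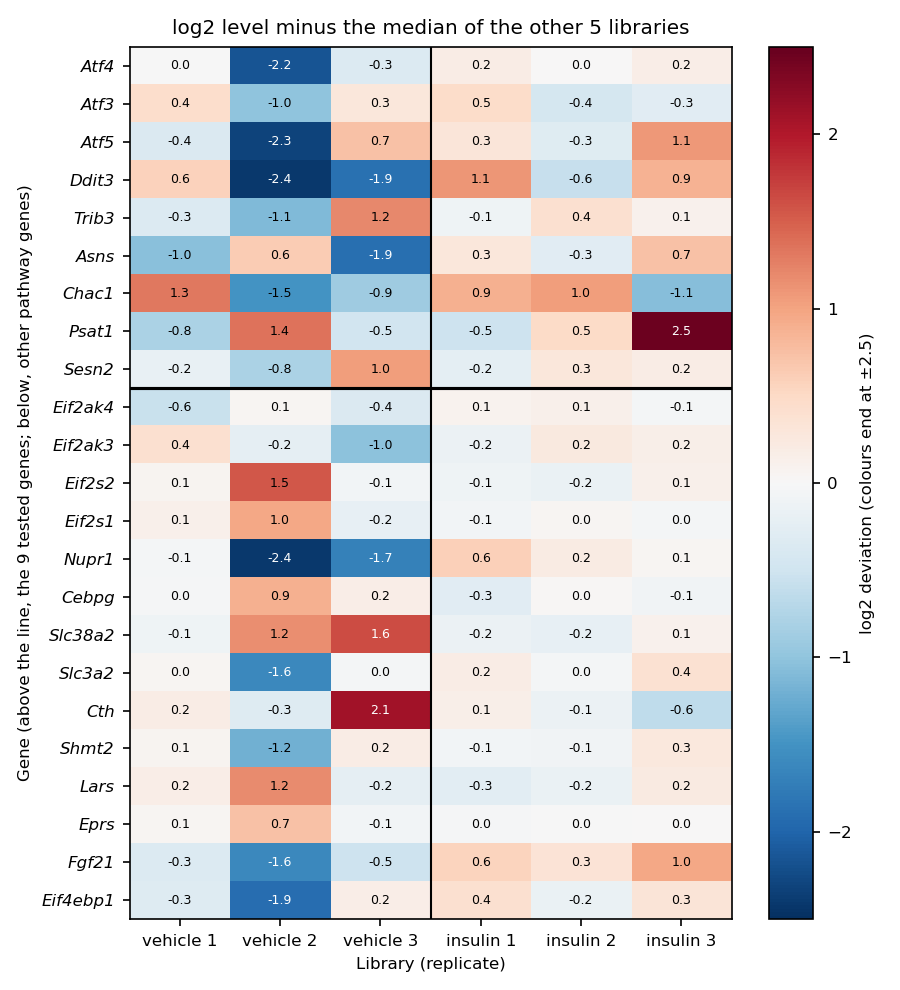
Deviation of each gene in each library from the median of the other 5 libraries (log2 CPM), as a colour scale with the value in each cell and, under the line, the same for the other pathway genes named in the text. IR vehicle replicate 2 is low in 7 of the 9 genes and above the median of the others in Asns and Psat1, while IR vehicle replicate 3 is high in Trib3 and Sesn2 and low in Asns and Ddit3.

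Across the 6 libraries the genes fell into more than 1 pattern, described here by correlations of log2 CPM with n = 6 and no test, since all points share the depth and the base composition of their libraries. Trib3 and Sesn2 were the most alike, with r = 0.985 and rho = 0.943. Atf4 was nearest to Atf5 (r = 0.894, rho = 0.543), and Ddit3 (r = 0.830, rho = 0.943), Atf3 (r = 0.814, rho = 0.543) and Chac1 (r = 0.666, rho = 0.314) were each nearest to Atf4. Asns and Psat1 were nearest to each other (r = 0.703, rho = 0.714). Asns ran against Sesn2 (r = −0.753, rho = −0.543) and Trib3 (r = −0.688, rho = −0.429). Asns, Trib3, Atf3 and Chac1, the genes with the element shown above, were thus spread over all of these patterns.

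The mean of the 9 standardized profiles was −1.08 in IR vehicle replicate 2, 0.07 in IR vehicle replicates 1 and 3, and 0.17 to 0.47 in the insulin mice. Of 9173 other genes with a mean of at least 5 CPM, those most like this mean profile were Mtg2, Fignl2, Wdr83, Cdk2ap1 and Xylt2, with r from 0.997 to 0.998 and rho from 0.943 to 1. They were picked as the highest of 9173 over 6 libraries, on a profile in which IR vehicle replicate 2 lay far below the rest. Whether they are linked to the ATF4 genes was not tested.

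The rest of the pathway was read from a list of 51 further genes by role, of which 48 were tested. Of these, 1 was higher and 1 lower with insulin at an unadjusted p under 0.05, beside 2.86% of all genes tested, and 21 fold changes were above 0 and 27 below, with a median of −0.09. The smallest adjusted p in edgeR was 0.852. All insulin values lay above all vehicle values for 2 of the 48 (Nupr1 and Fgf21), beside 6.25% of all genes tested. The opposite order was found for 0 of the 48 and for 6.04% of all genes. Aldh1l2, Pycr1 and Stc2 did not pass the filter on low counts.

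Upstream of ATF4, the 4 eIF2 kinases gave 2 fold changes above and 2 below 0. Eif2ak4, which encodes the amino acid sensor GCN2, had a log2 fold change of 0.31 ± 0.25, and Eif2ak3, which encodes PERK of the endoplasmic reticulum, had 0.22 ± 0.33. The 10 genes for eIF2, its exchange factor and its phosphatase subunits had 8 fold changes below 0, led by Eif2s2 (−0.72 ± 0.42) and Eif2s1 (−0.38 ± 0.31), and none was at p under 0.05. IR vehicle replicate 2 was far above the rest in Eif2s2, with 234 CPM where the other 5 lay between 75.4 and 87.9 CPM. Without that library the fold changes were −0.03 for Eif2s2 and 0.02 for Eif2s1, and with GC content modelled they were −0.27 and −0.05. Eif2s2 was at −0.99 without IR vehicle replicate 3, with an unadjusted p under 0.05, as were 876 of the 13377 genes tested in that fit.

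Of the partners of ATF4, Nupr1, a small stress-induced cofactor, was low in all libraries. The vehicle mice held 2.43, 0.368 and 0.715 CPM and the insulin mice 3.74, 2.86 and 2.54 CPM. All insulin values were above all vehicle values, as for Atf4 and for 6.25% of all genes tested. The 2 lowest mice were those that were lowest in Ddit3. The log2 fold change was 1.37 ± 0.64 (adjusted p = 0.852 by edgeR). It was above 0 in all 15 alternatives and at an unadjusted p under 0.05 in 5. These included DESeq2 (1.36) and the fit without IR vehicle replicate 1 (2.46), where 507 and 1323 of 13377 genes were also under 0.05. Without IR vehicle replicate 2 the fold change was 0.96. Cebpg, a dimer partner of ATF4, had −0.49 ± 0.28. Cebpb, another partner, was chosen after its values were seen, and it stood at 186, 9.94 and 269.7 CPM in the vehicle mice and at 192, 161 and 154 CPM in the insulin mice, so that IR vehicle replicate 2 was again far below the rest.

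Among targets for amino acid supply, Slc38a2, the neutral amino acid transporter SNAT2, was the only one at an unadjusted p under 0.05. The vehicle mice held 43.6, 97.1 and 134 CPM and the insulin mice 42.4, 40.6 and 47.0 CPM. IR vehicle replicate 1 lay inside the insulin range, and the lower insulin mean came from the high values of vehicle replicates 2 and 3. Its log2 fold change was −1.08 ± 0.38 (adjusted p = 0.852 by edgeR). The unadjusted p was no longer under 0.05 without IR vehicle replicate 3 (−0.70), without any 1 of the insulin libraries, or in limma voom (−0.48). Slc3a2, the heavy chain shared by several transporters, had 0.54 ± 0.40.

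Of the amino acid and folate enzymes, 3 fold changes were above and 4 below 0. Cth, the cystathionine gamma-lyase of cysteine synthesis, reached 392, 307 and 1498 CPM in the vehicle mice and 383, 347 and 248 CPM in the insulin mice. The high value was that of IR vehicle replicate 3, the mouse that was also highest in Trib3 and Sesn2. Its log2 fold change was −1.17 ± 0.59 and −0.10 without that mouse. Shmt2, the mitochondrial serine hydroxymethyltransferase, had 0.27 ± 0.35.

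The 12 cytosolic aminoacyl-tRNA synthetases, which charge tRNA with amino acids, gave 5 fold changes above and 7 below 0, from −0.49 to 0.39. The smallest p in edgeR belonged to Lars (−0.49 ± 0.35) and Eprs (−0.29 ± 0.27).

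Of the stress effectors and secreted factors, Fgf21, a hepatokine of fasting and amino acid shortage, had the only higher value at an unadjusted p under 0.05. The vehicle mice stood at 6.66, 2.70 and 5.87 CPM and the insulin mice at 9.91, 8.49 and 13.1 CPM. All insulin values were above all vehicle values, an order found in 6.25% of all genes tested, with IR vehicle replicate 2 the lowest mouse. The log2 fold change was 1.04 ± 0.38 (95% interval 0.17 to 1.92, adjusted p = 0.852 by edgeR). The unadjusted p was under 0.05 here and in 13 of 15 alternatives, but not without IR insulin replicate 3 or in limma voom. Eif4ebp1, a brake on cap-dependent translation, had 0.61 ± 0.44.

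**Figure D4:**
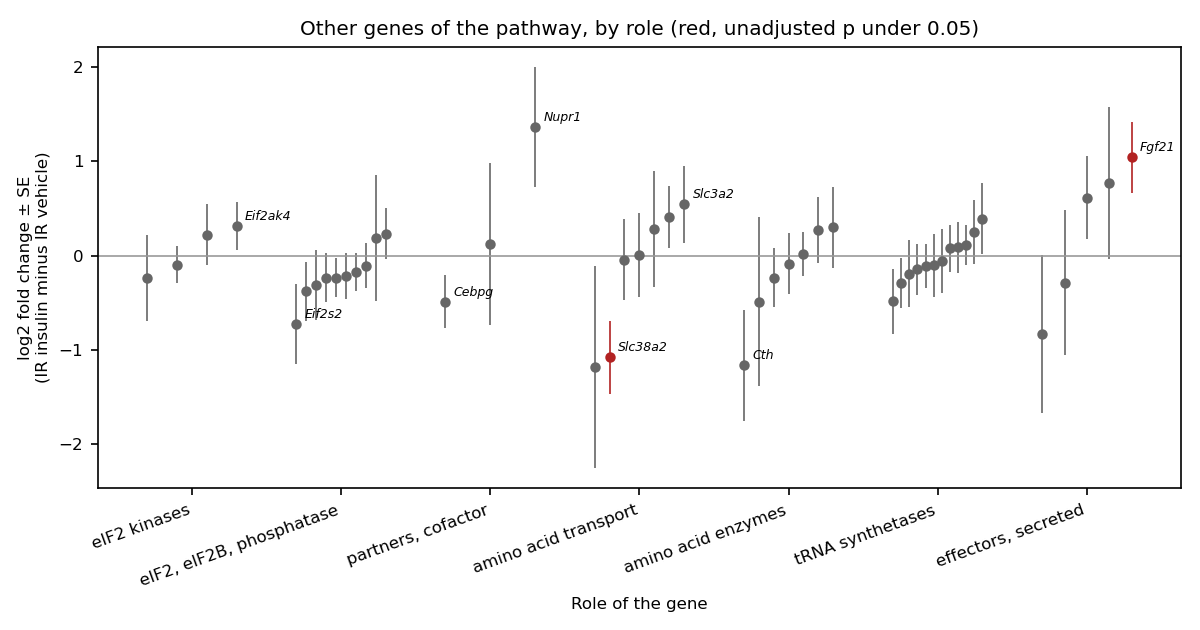
Log2 fold change with its SE (IR insulin over IR vehicle, edgeR) of the 48 other pathway genes tested, grouped by role, with Fgf21 and Slc38a2, the genes at an unadjusted p under 0.05, in red. Values lie on both sides of 0 in every role group, and those of the synthetases stay between −0.49 and 0.39.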

How the data were processed

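The deposited table held raw read counts per Ensembl gene for 6 liver libraries, 1 per mouse, without normalization or pooling by the authors. According to the methods, libraries were made with the NEBNext Ultra RNA kit, sequenced on an Illumina HiSeq and aligned with Bowtie2 2.2.3 to mm10. The counting program, its annotation and its use of strand are not given in the sources used here, so counts of overlapping genes are uncertain. Groups came from the sample labels. Loci, length and GC content were taken from GENCODE M21 (GRCm38), and promoters from RefSeq.

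IR insulin was compared with IR vehicle in edgeR 4.0.16 (R 4.3.3) by the quasi-likelihood test, with TMM and filterByExpr (minimum count 10, minimum total 15), without covariates. The test was checked on simulated data, in which the set changes were larger than those of the members and no library stood apart. That check does not cover changes as small as theirs. P values were adjusted by Benjamini-Hochberg over 13377 genes. An exact permutation test of 3 against 3 cannot go below p = 0.1 and was not used. The 15 alternatives included DESeq2 1.42.0, the study's tool, and limma 3.58.1. Voom used sample quality weights throughout. These were 0.12 for IR vehicle replicate 2, 0.43 for IR vehicle replicate 3 and at most 3.29, for IR insulin replicate 1. Deviations used a prior count of 2. At the mean effective size, 10 counts equal 0.487 CPM. The biological coefficient of variation was 0.357.

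The members and lists were chosen with earlier results of these data known. All members were named. Of the pathway list, the 2 genes of smallest p per role and each gene at p under 0.05 were named.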

Additional observations from a re-analysis of the deposited data

How the results depend on the processing

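Under the 15 alternatives, no gene reached an adjusted p under 0.05. Fold changes of Atf4, Atf5, Ddit3 and Asns stayed above 0 in all 15, and 120 of the 135 values of the members kept their direction, all with an adjusted p over 0.05. The number of members at an unadjusted p under 0.05, and that past the study's criteria, were 0 in the reported fit. Both were 1 with every gene with a count kept, with voom, with the replicate block and with a GC offset plus the block, and 0 to 1 when 1 library was left out (1 without IR vehicle replicate 1, where it was Ddit3, and 1 without IR vehicle replicate 2, where it was Asns). In the same order, 742 of 23040 genes and 213, 321 and 335 of 13377 were at an unadjusted p under 0.05. Without IR vehicle replicates 1 and 2 in turn, 1323 and 490 of 13377 were. The members' median log2 fold change (0.60) was 0.23 with a GC offset, 0.22 with a GC offset plus the block, and 0.15 to 0.74 with 1 library left out. Genes past the study's criteria (383 of 13377) numbered 742 with every gene kept, where 23040 genes were tested. Of 13377 genes in each fit, they numbered 213 by voom and 90 to 1323 with 1 library left out. The highest was without IR vehicle replicate 1 and the lowest without IR insulin replicate 1. Pathway list genes at p under 0.05 (2) numbered 4 with every gene kept, 4 by DESeq2, 1 by voom and 0 to 4 with 1 library left out. Of all genes, 742 of 23040, 507 of 13377 and 213 of 13377 were under 0.05 in the first 3 of these fits. The count of 4 came without IR vehicle replicate 1, 2 or 3, where 1323, 490 and 876 of 13377 genes were. The median of that list (−0.09) was 0.10 with library totals alone, 0.0071 by voom and −0.16 to 0.064 with 1 library left out. Library totals alone moved the median of all genes from −0.02 to 0.16.

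With 1 library left out, log2 fold changes ran from −0.24 (without IR vehicle replicate 2) to 0.27 for Atf3, −0.49 to 0.76 (without IR vehicle replicate 3) for Trib3, −0.11 (without IR vehicle replicate 2) to 1.01 for Chac1, −0.27 (without IR insulin replicate 3) to 1.61 for Psat1, and −0.47 to 0.43 (without IR vehicle replicate 3) for Sesn2. Atf3 was also −0.16 without IR insulin replicate 1. Of the other pathway genes named, the same ranges crossed 0 for Eif2ak3 (−0.055 to 0.56), Eif2s1 (−0.59 to 0.022), Shmt2 (−0.036 to 0.49) and Lars (−0.71 to 0.0032). The sign also turned with voom for Atf3 (−0.21), Chac1 (−0.10) and Trib3 (0.12), with a GC offset for Atf3 (−0.083), Chac1 (−0.092) and Shmt2 (−0.071), and with a GC offset plus the block for Atf3 (−0.058), Chac1 (−0.084) and Shmt2 (−0.073). For Trib3 it turned with library totals alone (0.031) and with the replicate block (0.17). Beyond the libraries left out, the cause was not tested. Deviations of same-numbered mice correlated at r = −0.04, 0.07 and 0.02, and those of mice with unlike numbers at −0.11 to 0.09. With 3 mice per group, values this small cannot settle whether replicate numbers paired the samples. With the replicate block the log2 fold change of Ddit3 was 1.52, with a GC offset plus the block it was 1.62, and both were at an unadjusted p under 0.05, as Nupr1 was (1.69 and 1.61). Under the block genes at p under 0.05 numbered 321. Phgdh, Psat1, Atf3 and Chac1 had under 100 counts in most libraries, which widens their counting error.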
